A study of Mus musculus with 8 samples.

Results

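The peak lists of Utx-cKO and wild-type mouse chondrocytes were compared for the histone mark labelled H3K27me3. Both lists were taken whole: 49405 peaks of the single Utx-cKO library and 28057 peaks of the single wild-type library, 77462 of the 138214 peaks in the 4 lists of the series. Peaks sharing at least 1 bp were paired, and a peak with no partner in the other list is called unpaired. The study profiled cartilage chondrocytes of 4 genotypes, wild type, Utx-cKO, Jmjd3-cKO and Ezh2-cKO, each with a ChIP library (immunoprecipitated chromatin) and an input library. Cells of every genotype were kept in DMEM with 10% FBS at 37 °C and 5% CO2, fixed for 10 min in 1% formaldehyde and quenched with 125 mM glycine. "cKO" stands for a conditional knockout. The sources used here do not give the Cre driver, the deleted allele, the age and sex of the mice or whether animals were pooled. With 1 library a side, every difference below describes these libraries and has no replicate check.

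Utx, encoded by Kdm6a on the X chromosome, is a demethylase that removes methyl groups from lysine 27 of histone H3. Jmjd3, encoded by Kdm6b, has the same activity. The mark is written by Ezh2, the catalytic subunit of Polycomb repressive complex 2 (PRC2), which is known for covering CpG-rich starts of silent developmental genes and can spread along chromatin in broad domains. Chondrocytes make the cartilage matrix, rich in type II collagen and aggrecan, under the control of Sox9. A peak here is a stretch in which the ChIP library exceeded its own input. Its fold enrichment is the authors' ratio over that input, and was used to rank peaks inside a list and, at 4 or more, to filter them. Values of both lists stand side by side at some genes, but each rests on its own input and they are not compared.

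The lists differ in depth as well as genotype. After removal of duplicates the Utx-cKO ChIP library held 34359111 fragments and its input 23983492. The wild-type libraries held 29222251 and 16599532. A deeper library lets weaker stretches pass the same threshold, so list length was levelled in a second comparison, in which the Utx-cKO list was limited to its 28057 peaks of highest fold enrichment ("equally long lists"). This levels the number of peaks, not the depth. The titles of the libraries carry number prefixes that differ between wild type and Utx-cKO, so library handling and genotype cannot be told apart.

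The promoters of 4 genes show the sequences at which both kinds of peak were found. Kdm6a has its start under a paired peak, whereas Eomes, a T-box gene of early development, Calca, the calcitonin gene, and Chad, which encodes the cartilage protein chondroadherin, have theirs under peaks called in Utx-cKO alone. Each run is the 250 bases before the annotated start, 5′ to 3′ on the gene's strand, from RefSeq on GRCm38.p6. Capitals mark CG dinucleotides, the motif CG reading the same on both strands. The places are chrX:18162325-18162574 (plus strand), chr9:118477939-118478188 (plus), chr7:114636358-114636607 (minus) and chr11:94564797-94565046 (plus), in the same order as the lines.
Kdm6a: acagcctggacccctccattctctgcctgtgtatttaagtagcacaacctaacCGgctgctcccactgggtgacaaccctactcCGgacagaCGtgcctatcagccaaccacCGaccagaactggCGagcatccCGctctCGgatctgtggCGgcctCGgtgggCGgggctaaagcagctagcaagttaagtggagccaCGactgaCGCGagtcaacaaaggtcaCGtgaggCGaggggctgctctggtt
Eomes: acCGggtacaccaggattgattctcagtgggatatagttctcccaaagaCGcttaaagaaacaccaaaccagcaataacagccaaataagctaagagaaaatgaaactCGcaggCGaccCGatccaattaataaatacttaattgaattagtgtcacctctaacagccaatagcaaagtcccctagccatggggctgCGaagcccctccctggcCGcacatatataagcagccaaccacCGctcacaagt
Calca: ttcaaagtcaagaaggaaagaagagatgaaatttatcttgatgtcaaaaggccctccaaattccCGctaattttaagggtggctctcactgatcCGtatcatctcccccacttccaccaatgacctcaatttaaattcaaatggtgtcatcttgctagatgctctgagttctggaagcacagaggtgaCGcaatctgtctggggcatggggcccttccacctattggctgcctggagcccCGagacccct
Chad: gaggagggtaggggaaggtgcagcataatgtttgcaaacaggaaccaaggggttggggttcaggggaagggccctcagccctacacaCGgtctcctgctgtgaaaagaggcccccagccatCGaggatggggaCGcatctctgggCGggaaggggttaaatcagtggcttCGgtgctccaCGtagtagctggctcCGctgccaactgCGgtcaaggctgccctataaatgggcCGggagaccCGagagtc
The Kdm6a stretch holds 15 CG, Chad 10, Eomes 8 and Calca 4. At least 1 CG was found in 93.4% of the 21262 promoter windows in the table and 10 or more in 50.1%.

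Starts under unpaired Utx-cKO peaks were poorer in CG than starts under shared ones. The median over 12406 start sites under paired Utx-cKO peaks was 17 CG in 250 bases, with 79.4% of them holding 10 or more. Over the 553 start sites under unpaired Utx-cKO peaks the median was 6, with 30.02% holding 10 or more. The 8192 start sites under no peak had a median of 2, the 111 under a wild-type peak alone 8, and all sites together 10. Starts reached by Utx-cKO peaks alone therefore lay between the shared starts and the uncovered ones in CG content.

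Whether the peaks carry the pattern of the labelled mark and cell type was checked on marker genes. Each of 12 chondrocyte markers had a peak within 2 kb of a gene end in both lists, and so did each of 6 housekeeping genes, among them Hnrnpk with wild-type and Utx-cKO fold enrichments of 13.4 and 19.5 and Vcp with 12.1 and 17.5. These are genes that nearly every cell transcribes, and the peaks at these 2 genes ranked at percentile 97.9 or above in each list. Gapdh, Eef2, Actb and Tbp ranked lower, from 71.1 (Gapdh) to 89.1 (Tbp) in wild type. In Utx-cKO they ranked from 83.5 (Eef2) to 87.8 (Actb). Of 6 muscle markers 0 had a wild-type peak and 3 a Utx-cKO peak, with Myod1, Myog and Acta1 in neither list. Of 6 endothelial markers 1 had a wild-type and 3 a Utx-cKO peak, and of 6 blood markers 1 and 4. Strong peaks within 2 kb of an end of housekeeping genes go against the pattern known for H3K27me3, so the mark is named here only as the labels give it. A called peak is not read below as a sign that a gene is silent. Peaks at Kdm6a do not check the deletion, since a peak list does not show which part of a gene is missing. The peak over the Kdm6a start was 3727 bp in wild type and 3968 bp in Utx-cKO, and ranked at percentiles 98.3 and 99.4.

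Much of the Utx-cKO list had no wild-type counterpart. Unpaired were 25786 of 49405 Utx-cKO peaks (52.2%, 95% Wilson interval 51.8 to 52.6%) and 3552 of 28057 wild-type peaks (12.7%, 12.3 to 13.05%). The intervals cover counting error only. Once the lists were equally long, the shares were 27.5% of the Utx-cKO peaks (7719) and 24.2% of the wild-type peaks (6783). Their closeness follows from the equal list lengths, since most paired peaks had a single partner, and says nothing about the genotypes. The counts can differ only where a peak overlaps 2 or more peaks of the other list. With equally long lists 839 Utx-cKO peaks and 56 wild-type peaks did so. In bases, the Utx-cKO list covered 74.3 Mb and the wild-type list 40.5 Mb, of which 36.0 Mb were common. Of the Utx-cKO bases outside wild-type peaks, 17.5 Mb belonged to peaks that had a partner and 20.9 Mb to unpaired peaks.

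The shared peaks were longer in Utx-cKO. In 22487 pairs each peak had exactly 1 partner, and 17380 of these pairs (77.3%, 76.7 to 77.8%) were longer in Utx-cKO. The median length was 1156 bp in wild type and 1648 bp in Utx-cKO, and the median of the ratio within pairs was 1.25, with a middle 50% from 1.02 to 1.78. Equally long lists gave 1.24. At least a doubling was seen in 4532 pairs (20.2%), and a length of 0.5 or less of the wild-type length in 497 (2.21%). The median difference within pairs was 281 bp.

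The ratio was largest for weak and short peaks. Split by wild-type fold enrichment, the median ratio was 1.84 in the lowest quartile, then 1.33, 1.21 and 1.12 in the highest. Split by wild-type length, it was 2.03 for peaks of up to 500 bp and 1.05 for peaks over 4 kb. The absolute differences were closer together, with medians of 459, 213, 257 and 265 bp over the same quartiles. Sorting pairs by a value of the wild-type list alone favours such an order, and its part in the trend was not tested. In the strongest quartile 74.9% of the pairs were still longer in Utx-cKO.

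**Figure D1:**
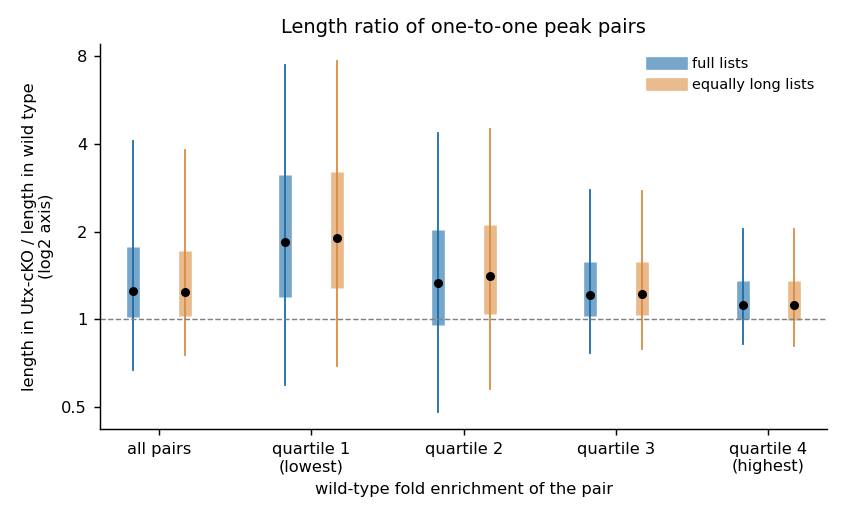
Ratio of peak length in Utx-cKO to wild type (log2 axis) in pairs with 1 partner each, for all pairs and by quartile of wild-type fold enrichment, in the full and the equally long lists; dots are medians, thick bars the middle 50% and thin lines the 5th to 95th percentiles over pairs. The medians lie above 1 in every quartile, from 1.84 in the lowest to 1.12 in the highest with full lists.

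The other knockouts give the same measures against the same wild-type list, which all 3 comparisons share. For Jmjd3-cKO, with 25655346 ChIP fragments, the median ratio was 1.03 and 55.2% of the pairs were longer in the knockout. For Ezh2-cKO, with 34786292 ChIP and 24041619 input fragments, it was 1.06 and 60.3%. With full lists the share of unpaired peaks was 22.0% in Jmjd3-cKO and 33.5% in Ezh2-cKO, against 52.2% in Utx-cKO. When both lists of a comparison were equally long (27013 peaks a side for Jmjd3-cKO) the shares were close, at 24.0%, 25.55% and 27.5% in that order. The part of depth in the longer Utx-cKO peaks was not tested.

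Extension was larger inside the gene than before it. In 8034 pairs that covered annotated starts of 1 strand only, the Utx-cKO peak reached a median of 82 bp farther on the upstream side and 152 bp farther on the downstream side. Among the 6322 of them that were longer in Utx-cKO the medians were 120 and 243 bp, and 64.1% extended more downstream than upstream. The 75th percentiles of these 6322 pairs were 282 and 647 bp.

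Single genes show how far the widening went. Kdm6b, the gene of the sister demethylase, had wild-type peaks of 5279 and 12350 bp, where the Utx-cKO list held 1 peak of 28115 bp at chr11:69393859-69421973 that covered the whole gene body. The covered share of the Kdm6b body was 58.6% in wild type and 100% in Utx-cKO. At Ezh2, the methyltransferase gene, the peak was 2412 bp in wild type and 2757 bp in Utx-cKO. Col2a1, the gene of type II collagen, had a longest peak of 16587 bp in wild type and of 26223 bp in Utx-cKO, and peaks covered 55.2% and 95.6% of its body. Sox9, the chondrocyte regulator, had 7847 and 9749 bp, with the body fully covered in both lists. Acan, the aggrecan gene, had 5910 and 8914 bp. Ihh, the hedgehog ligand of growth cartilage, had 617 and 2255 bp.

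Not every cartilage gene followed. In a list of 25 chondrocyte genes (matrix proteins and their regulators), 22 had a peak in both lists, and at 17 of these (77.3%) the longest peak was longer in Utx-cKO. Over all genes with a peak in both lists this held for 10890 of 13537 (80.4%), with a median ratio of 1.225, against 1.24 for the cartilage list. The longest peak was shorter in Utx-cKO at Col11a1, 9385 bp against 9980 bp in wild type, at Hapln1, the link protein gene, with 6610 against 7834 bp, and at Sox5, a partner of Sox9, with 2109 against 2914 bp. It was also shorter at Runx2, the regulator of hypertrophy and bone, with 2539 bp against 3068 bp. Among 14 hypertrophy and bone genes with a peak in both lists, 13 had a longer one in Utx-cKO (median ratio 1.63), and in the Hedgehog pathway 11 of 14 did (1.49). The collagen gene Col10a1 and the collagenase gene Mmp13, both of hypertrophic cartilage, had no peak at either end or over the body in either list.

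Coverage of the gene body also went both ways among cartilage genes. More bases were covered in Utx-cKO at 17 of the 24 chondrocyte genes with a peak over the body (70.8%), against 81.5% of all such genes. The median covered share over 15477 genes with any peak over the body was 5.54% in wild type and 9.54% in Utx-cKO, or 7.39% with the equally long list. Comp, a cartilage matrix protein gene, was covered over 12.8% of its body in wild type and 70.5% in Utx-cKO, or 38.7% with the equally long list. Chad had no covered base in wild type and 59.5% in Utx-cKO, but 0% in the equally long list. Col9a3, a type IX collagen gene, went from 21.2% to 62.0%, Fmod, the fibromodulin gene, from 44.4% to 100%, and Snorc, a small cartilage proteoglycan gene, from 13.5% to 97.96%. These 3 values were as high in the equally long list. The covered share was lower in Utx-cKO at Ucma, with 41.8% in wild type and 30.05% in Utx-cKO, Cnmd, the chondromodulin gene, with 20.4% and 18.4%, Matn3, a matrilin gene, with 8.30% and 7.27%, and Col11a1 with 6.62% and 4.92%. All of these except Comp and Chad were chosen after their values were seen. The housekeeping genes were divided as well: Eef2, a translation factor gene also chosen after its values were seen, had a longest peak of 5559 bp in wild type and 13292 bp in Utx-cKO, while at Hnrnpk it was 5660 and 4876 bp.

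**Figure D2:**
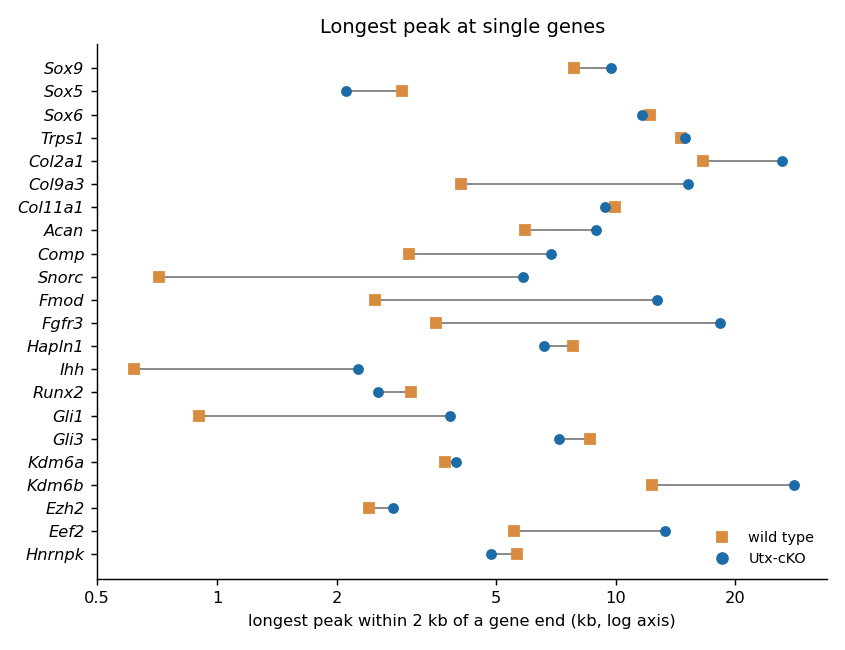
Longest peak within 2 kb of either gene end (kb, log axis) in wild type (squares) and Utx-cKO (circles) at 22 genes of cartilage, hedgehog signalling, the H3K27 enzymes and housekeeping, some of them picked after their values were seen. Fgfr3, Col9a3 and Kdm6b are far longer in Utx-cKO, whereas Sox5, Sox6, Col11a1, Hapln1, Runx2, Gli3 and Hnrnpk are shorter.

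At gene ends with a wild-type fold enrichment of 4 or more there were 9129 pairs, with a median ratio of 1.15, and 77.4% of them were longer in Utx-cKO. The largest ratio was at Pkib, a protein kinase inhibitor gene, where a wild-type peak of 241 bp met a Utx-cKO peak of 2345 bp, a ratio of 9.73. Next came Smug1, a uracil DNA glycosylase gene, with 553 and 4348 bp, Uhrf1, a gene for the maintenance of DNA methylation, with 1299 and 9923 bp, and Amh, the anti-Müllerian hormone gene, with 1135 and 8358 bp. S1pr3, Prss56, Dnase1l3, Sv2a, Dhrs3, Nr2c2ap, Smarcd3 and Gpr146 completed the 12 largest, with ratios from 6.75 down to 5.37. The smallest was at Gm13283, 1013 bp in wild type and 266 bp in Utx-cKO, a ratio of 0.263. Rfesd, Mfap1b, Iftap, Gm14410, Sqor, Gm10509 and H2ac18 followed, with ratios from 0.309 to 0.431. The wild-type peaks of the 12 largest ratios were 241 to 1299 bp long.

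Some Utx-cKO peaks joined several wild-type peaks. A Utx-cKO peak overlapped 2 or more wild-type peaks in 871 cases, which took up 1895 wild-type peaks (6.75% of that list), and 112 peaks overlapped 3 or more. The equally long lists held 839 such peaks. The converse, a wild-type peak over 2 or more Utx-cKO peaks, occurred 136 times. For the other knockouts the joining and the converse numbers were 357 and 188 in Jmjd3-cKO and 394 and 212 in Ezh2-cKO. Joining peaks had a median length of 6269 bp and a median rank percentile of 80.0, and 593 of them lay within 2 kb of a gene end.

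The gaps closed were mostly short. Of the wild-type gaps of up to 1 kb, 130 of 192 (67.7%) were spanned by a Utx-cKO peak, and of all gaps of up to 2 kb, 744 of 1733 (42.9%). For gaps of up to 10 kb the share was 12.8%. The median gap spanned was 1404.5 bp and the largest 9051 bp. Peaks of 10 kb or more numbered 248 in Utx-cKO and 57 in wild type.

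The peak that joined most lay at chr8:84698318-84754318, was 56001 bp long and overlapped 12 wild-type peaks across Nfix, a nuclear factor I gene, Trmt1 and Lyl1. A second peak of 37904 bp over another stretch of Nfix joined 4. Nfic, another nuclear factor I gene, was under a peak of 31867 bp that joined 7. On chromosome 10 a peak of 45573 bp joined 8 wild-type peaks over Atp5d, Midn, Cirbp, Efna2 and neighbours. Zmiz1, a transcriptional coregulator gene, had 6 wild-type peaks under 27562 bp, and Bcl9l, a cofactor of beta-catenin, 5 under 28901 bp. Plec, the plectin gene, had 5 under 20897 bp. Fgfr3, the receptor that restrains growth of cartilage, had 5 wild-type peaks, the longest 3547 bp at its ends, under a Utx-cKO peak of 18278 bp at chr5:33720441-33738718. All of these stayed in the equally long list, with fold enrichment ranks between percentiles 73.4 and 91.6.

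Unpaired Utx-cKO peaks were weak within their list. Their median fold enrichment was 2.75 and their median rank percentile 30.15, against 5.12 and 76.1 for Utx-cKO peaks with a partner. They were also short, with a median of 596 bp against 1710 bp. Only 222 of them (0.861%) reached a fold enrichment of 4, against 60.3% of the paired ones. Of the lowest decile of the Utx-cKO list 87.8% was unpaired. That share was 39.6% in decile 7 and 5.79% in decile 8, with 2 peaks in decile 9 and 0 of 4941 in decile 10. With equally long lists the median rank percentile of the unpaired peaks was 19.9. The unpaired wild-type peaks were weak in their own list too, with a median rank percentile of 26.7, but decile 1 of wild type had only 10.1% unpaired, against 35.6% in decile 3.

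**Figure D3:**
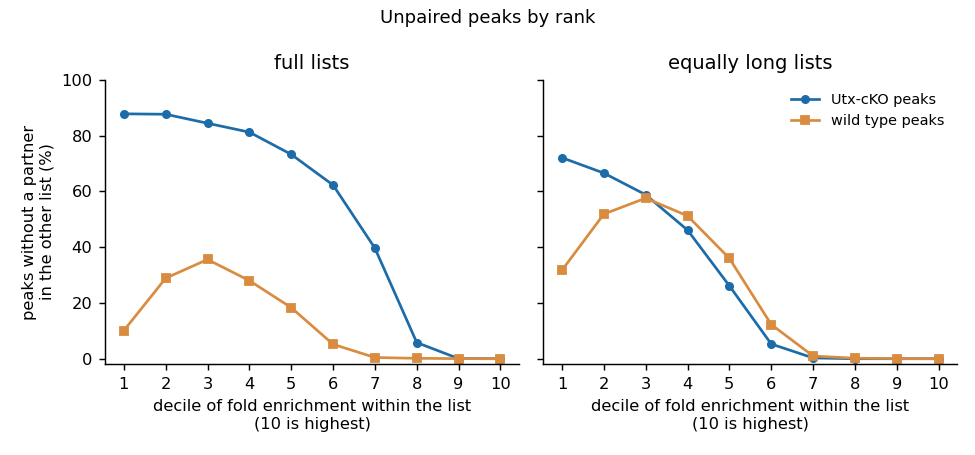
Share of peaks without a partner in the other list (%) by decile of fold enrichment within the own list, for Utx-cKO and wild-type peaks in the full (left) and equally long lists (right). The Utx-cKO share falls from 87.8% in the lowest decile to 0 in the highest with full lists.

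Rank order was largely shared. Across the pairs with 1 partner each, fold enrichment in wild type and in Utx-cKO had a Spearman correlation of 0.878, or 0.905 with equally long lists. This is across peaks, which are not independent, and both libraries share the antibody and the base composition of the sites. In the equally long lists 12174 of 19397 pairs (62.8%) lay within 10 percentile points of each other, 990 stood more than 30 points higher in Utx-cKO and 440 more than 30 points lower.

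The 12 unpaired Utx-cKO peaks of highest fold enrichment at gene ends were led by that at Srp54b, a signal recognition particle gene, with a fold enrichment of 6.72, then Asphd1 (5.50), Lsm11 (5.47), a gene of the U7 ribonucleoprotein, Ticam1 (5.37), an adaptor of Toll-like receptors, and 2410004P03Rik (5.28). Dnah7c (5.21), Pik3c3 (5.15), Ankrd53 (5.06), Ethe1 (5.04), Hand1 (4.97), Calca (4.86) and Exoc3l4 (4.85) followed. Their ranks were between percentiles 75.2 and 81.0 of the Utx-cKO list. Each was also unpaired in the equally long lists, but this was fixed in advance. The wild-type list is unchanged there, and the strongest Utx-cKO peaks are the ones kept. After peaks within 3 kb had been merged, 10 of 12 were unpaired. Hand1, a regulator of heart development, had its peak of 720 bp at chr11:57827495-57828214, and the nearest wild-type peak was 24217 bp away. For Calca that distance was 72701 bp, and for Dnah7c, a dynein gene, 358008 bp. Lsm11, Ticam1 and Exoc3l4 had another peak in wild type.

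The 12 longest unpaired Utx-cKO peaks at gene ends ran from 12708 bp at Gas6, a growth arrest gene that encodes a ligand of TAM receptors, to 6223 bp at Pxn, the paxillin gene. Between them were Fmnl3, Pih1d1, Fxr2, 1700088E04Rik, Cmtr1, Pwwp3a, Tle5, Plin1, Sapcd1 and Mylk2. Except for Sapcd1 and Mylk2, a muscle kinase gene, all of these genes had another peak in wild type. Their fold enrichments were low, between 2.78 and 3.78, and the peaks at Gas6, Pih1d1, Cmtr1, Tle5 and Pxn were not among the 28057 strongest.

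In the converse direction, 227 of 21883 genes (1.04%) had an unpaired wild-type peak within 2 kb of an end, or 537 (2.45%) with equally long lists. The strongest was at Gon4l, with a fold enrichment of 6.59, followed by Dynlt1b (6.12) and Ermard (5.91). The other 9 of the 12 were, in alphabetical order, 2610318N02Rik, 5730507C01Rik, Ddx3y, H2-Q2, Kdm5d, Olfr1033, Rnaset2b, Serpinb1b and Xirp2, from 4.59 down to 3.62. Kdm5d, Ddx3y and Uty, the Y-linked relative of Utx, lie on chromosome Y. Their peaks had fold enrichments of 4.41, 3.66 and 3.30 in wild type, and no Utx-cKO peak lay at these genes. The whole Y list was 6 peaks in wild type and 4 in Utx-cKO, and 2 of the Jmjd3-cKO peaks and 0 of the Ezh2-cKO peaks lay on Y. The sex of the animals was not given.

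Unpaired Utx-cKO peaks were not, as a rule, next to a wild-type peak. Their median distance to the nearest one was 11361 bp, with a middle 50% from 4388 to 28063 bp. Of these peaks 562 (2.18%) lay within 1 kb and another 3761 (14.6%) within 3 kb, while 1288 (4.995%) lay beyond 100 kb. A stretch called as 1 peak with a shared one counts as paired and cannot appear here. Short gaps were rare inside the wild-type list too, with 192 of up to 1 kb and 1733 of up to 2 kb. The part of peak calling in the low share within 1 kb was not tested. The nearest neighbour of a wild-type peak in its own list was at a median of 11920 bp. In the equally long lists the median for unpaired Utx-cKO peaks was also 11920 bp. The median fold enrichment was 2.71 within 1 kb and 2.78 beyond 100 kb, and the median length 585.5 and 443.5 bp. A fold enrichment of at least 4 was reached by 3 of 562 peaks within 1 kb (0.534%) and by 21 of 1288 beyond 100 kb (1.63%). Unpaired wild-type peaks were nearer to the other list with full lists, at a median of 7946.5 bp and 11.5% within 1 kb, but farther with equally long lists, at 13848 bp and 2.83%.

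**Figure D4:**
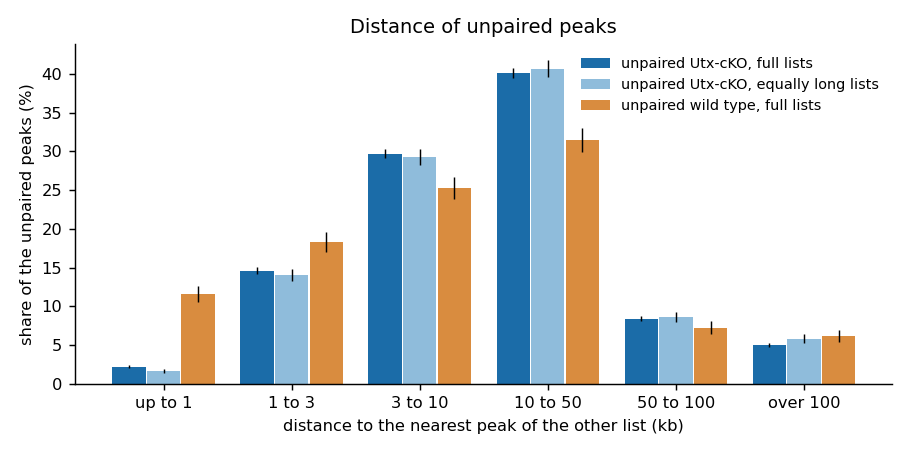
Share of unpaired peaks (%) by distance to the nearest peak of the other list (kb), for unpaired Utx-cKO peaks in the full and equally long lists and for unpaired wild-type peaks; whiskers are 95% Wilson intervals. Of the unpaired Utx-cKO peaks 40.1% lie between 10 and 50 kb away and 2.18% within 1 kb.

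Paired and unpaired peaks differed in their place relative to genes. Centres of paired Utx-cKO peaks lay within 2 kb of a gene end in 48.7% of cases, elsewhere inside a gene in 33.7% and outside protein-coding genes in 17.6%. For unpaired Utx-cKO peaks the shares were 11.7%, 56.1% and 32.2%, and for unpaired wild-type peaks 5.41%, 62.2% and 32.4%. Of 17491 genes with a known strand, 10557 (60.4%) had a paired Utx-cKO peak at the start and 2856 (16.3%) at the far end. An unpaired Utx-cKO peak was at the start of 980 genes (5.60%) and at the far end of 2090 (11.9%). These were 477 (2.73%) and 700 (4.002%) when the lists were equally long. Unpaired peaks were more frequent at the far ends of genes than at their starts, the reverse of paired peaks. Since paired peaks already lay at 60.4% of the starts and 16.3% of the far ends, the 2 orders are not independent. Gene ends free of a paired peak were not counted apart.

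The X chromosome, which carries Kdm6a, held few unpaired peaks. Of 664 Utx-cKO peaks on X, 137 were unpaired (20.6%, 17.7 to 23.9%), against 43.9 to 55.9% on the 19 autosomes. Equally long lists gave X 10.5% (8.21 to 13.3%), and the autosomes 22.0 to 32.3%. Peak numbers on X were 564 in wild type and 664 in Utx-cKO, a ratio of 1.18, where the autosomes had ratios from 1.49 to 1.94. The median length ratio was 1.11 on X and between 1.135 and 1.345 on the autosomes. Chromosome X also had a lower unpaired share in the other knockouts, with 10.3% against 22.3% on the autosomes in Jmjd3-cKO and 14.9% against 33.8% in Ezh2-cKO. The low share on X was thus found in all 3 comparisons, which have the wild-type library in common.

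An unpaired Utx-cKO peak lay within 2 kb of either end of 3628 of 21883 protein-coding genes (16.6%), or of 1444 (6.6%) with equally long lists. Within 1 kb of an annotated start it was 829 of 17491 genes (4.74%). Gene families were set against these shares. Among 331 developmental transcription factor genes 94 had such a peak (28.4%, 23.8 to 33.5%), and 48 (14.5%, 11.1 to 18.7%) with equally long lists. Among the 105 of them without any wild-type peak, 50 (47.6%) had one, where 1203 of all 8248 genes without a wild-type peak did (14.6%, or 7.67% with equally long lists). Adhesion (31.9%), cartilage (26.6%), signalling (24.8%), Tmem (23.8%), channel and receptor (22.5%) and metabolism genes (21.1%) also lay above the share of all genes. With equally long lists the intervals of cartilage (4.37 to 18.98%) and Tmem genes (4.90 to 11.8%) held the 6.6% of all genes. Zinc finger genes (8.08%), genes of the epithelial and secreted group (4.98%) and chemosensory receptors (0.274%) lay below the share of all genes with full lists. For housekeeping (13.1%), chromatin (6.98%), immune (6.45%) and matrix genes (16.8%) the interval held that share. The intervals treat genes as independent, which neighbours sharing a peak are not.

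**Figure D5:**
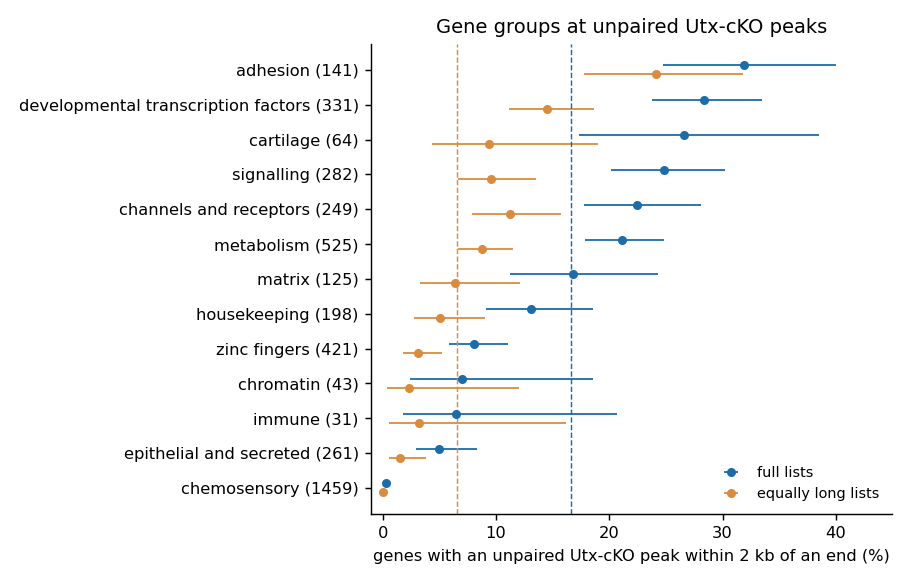
Share of genes with an unpaired Utx-cKO peak within 2 kb of either end (%), by gene group with the number of genes in brackets, for the full and the equally long lists; whiskers are 95% Wilson intervals and dashed lines the shares over all genes, 16.6% and 6.6%. Adhesion and developmental transcription factor genes lie to the right of both lines, and zinc finger and chemosensory genes to the left.

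Among the developmental families, Pax genes, regulators of organ and muscle progenitors, had no wild-type peak at the ends of any of the 9 members and an unpaired Utx-cKO peak at 5 of them (55.6%, 26.7 to 81.1%). They were Pax9 (3.21), expressed in the precursors of the vertebrae, Pax2 (3.115), a kidney regulator, Pax7 (2.72) and Pax3 (2.69), both of muscle progenitors, and Pax6 (2.57). T-box genes, regulators of mesoderm and limb, had one at 8 of 17 (47.1%), led by Eomes with a fold enrichment of 3.35 and a peak of 2081 bp, and by T, the brachyury gene, with 3.29. Tbx1 (3.04) and Tbx4 (2.76) followed. Sox genes had one at 8 of 19 (42.1%), led by Sox18 (3.20), an endothelial regulator, Sox15 (3.19), Sox10 (3.08), of the neural crest, and Sox3 (2.86). Sox9, Sox5 and Sox6 were not among them, since their peaks were shared by both lists. With equally long lists Pax genes stood at 2 of 9 (6.32 to 54.7%) and T-box genes at 3 of 17 (6.19 to 41.0%). Sox genes stood at 3 of 19 (5.52 to 37.6%). Each of these intervals held the 6.6% of all genes. Pax7, Pax3, Pax6, Tbx4 and Sox3 had no unpaired peak in that list.

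Among the other families of regulators the highest share was at Gata genes, 3 of 6 (50%, 18.8 to 81.2%). POU genes stood at 6 of 15 (40%) and Zic and Gli genes at 4 of 11 (36.4%). Nkx genes stood at 5 of 14 (35.7%), with Nkx2-9 (3.71), Nkx2-5 (3.15), a heart regulator, Nkx1-1 (3.12) and Nkx2-1 (2.87) the strongest. Hox genes, which set position along the body axis, stood at 10 of 39 (25.6%) on 9 peaks. Hoxb7 and Hoxb8 shared 1 peak of 1384 bp with a fold enrichment of 3.63, and Hoxb4 (3.51) and Hoxd3 (3.34) were next. The lineage bHLH genes stood at 8 of 38 (21.1%), led by Hand1, Tcf15 (3.88), Tal1 (3.64), a regulator of blood formation, and Ptf1a (3.17), of the pancreas. Hand1 at rank percentile 75.6 stood highest among these, and Tcf15 at 69.8 was next. The full-list intervals of Zic and Gli, Nkx, Hox and lineage bHLH genes held the 16.6% of all genes. With equally long lists the counts were 1 of 6 Gata, 2 of 15 POU and 1 of 11 Zic and Gli genes. Nkx genes stood at 3 of 14, Hox genes at 8 of 39 and lineage bHLH genes at 5 of 38. Of these intervals only those of Nkx (7.57 to 47.6%) and Hox genes (10.8 to 35.5%) lay above the 6.6% of all genes.

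Signalling families were mixed. TGF-beta superfamily ligands had an unpaired Utx-cKO peak at 12 of 34 (35.3%), with Inhbe (3.42), Gdf2 (3.39), Nodal (3.39) and Gdf1 (3.14) the strongest. Wnt ligands had one at 6 of 19 (31.6%) on 5 peaks, with Wnt3a (2.93), Wnt9a (2.84), and Wnt3 and Wnt9b (2.74), which share a peak. With equally long lists the Wnt share minus that of all genes was -1.34 percentage points. Fgf ligands and receptors had one at 8 of 26 (30.8%), led by Fgf8 (4.20), a limb and brain signal, Fgf1 (3.39), Fgf17 (2.97) and Fgf14 (2.97). Wnt10a had wild-type peaks of 754 and 436 bp at its ends, each with a Utx-cKO partner. Its Utx-cKO peaks each had a wild-type partner too, so it counts as shared. The full-list intervals of Wnt (15.4 to 53.99%) and Fgf genes (16.5 to 49.99%) held the 16.6% of all genes. That of the TGF-beta superfamily (21.5 to 52.1%) lay above it. With equally long lists TGF-beta superfamily ligands stood at 5 of 34 and Fgf genes at 5 of 26.

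The cartilage lists differed in how far they depended on list length. Chondrocyte matrix genes had an unpaired Utx-cKO peak at 7 of 25 (28.0%), namely Chad (2.85), Col2a1 (2.84), Col11a2 (2.83), Matn1 (2.79), Comp (2.73), Col9a2 and Col9a1. Only Chad among these had no wild-type peak. None of the 7 genes had an unpaired peak in the equally long list, where their share of 0% differed from that of all genes by -6.60 percentage points. Hypertrophy and bone genes had one at 7 of 24 (29.2%), among them Pth1r (3.56), the parathyroid hormone receptor gene, Mepe (3.48) and Panx3 (3.03), which all stayed in the equally long list. In the Hedgehog pathway it was 3 of 16 (18.8%): Disp2 (3.67), Dhh (3.03) and Smo (2.91).

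Outside development, potassium channel genes stood at 21 of 92 (22.8%, 15.4 to 32.4%), with Kcnh6 (3.80), Kcnj12 (3.70) and Kcnh2 (3.63). This interval held the 16.6% of all genes. Solute carriers stood above it at 88 of 383 (22.98%, 19.04 to 27.45%), with Slc25a48 (4.30), Slc12a8 (4.13), Slc25a28 (3.77) and Slc27a6 (3.71). With equally long lists these were 13 of 92 (14.1%) and 36 of 383 (9.40%), where the share over all genes was 6.6%. Protocadherins, adhesion molecules of neurons, stood at 29 of 69 (42.0%), but on only 10 peaks. A single peak of 1159 bp with a fold enrichment of 3.82 at the common far end of the gamma cluster accounted for 21 of these genes. They are 21 of the 45 adhesion genes with an unpaired Utx-cKO peak. Cytosolic ribosomal protein genes stood at 10 of 85 (11.8%, 6.52 to 20.3%), an interval that held the 16.6%, and 83 of the 85 had a wild-type peak. Olfactory receptors stood at 4 of 1106 (0.362%) and vomeronasal receptors at 0 of 353 (interval up to 1.08%). Zinc finger Zfp genes stood at 34 of 421 (8.08%), led by Zfp575 (5.04), which shares its peak with Ethe1, and 355 of the 421 had a wild-type peak.

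Markers of chondrocytes and of other cell types both lay at unpaired Utx-cKO peaks. With full lists these lay at 5 of 12 chondrocyte, 3 of 6 muscle, 2 of 6 endothelial, 3 of 6 blood and 0 of 6 housekeeping markers, where the share over all genes was 16.6%. Of 6 muscle markers 0 had a wild-type peak and 3 a Utx-cKO peak, Myf5, Pax7 and Des, with fold enrichments of 2.60, 2.72 and 2.94. Of 6 endothelial markers 1 and 3 did, Sox18 (3.20) and Egfl7 (3.36) being the additional ones, and of 6 blood markers 1 and 4, with Tal1, Cd3e (3.04) and Csf1r (2.76) additional. Pecam1, Cdh5 and Tek of endothelium and Ptprc and Gata1 of blood had no peak at their ends in either list. With equally long lists unpaired peaks lay at 1 muscle, 2 endothelial and 2 blood markers, and at none of the chondrocyte or housekeeping markers, where the share over all genes was 6.6%. Whether the cell mixture differed between the libraries was not tested.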

How the data were processed

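The submitters' processing notes name Bowtie2 (no version), FastQC 0.11.5, deepTools 2.4.1, HOMER 4.10, ChIPseeker and MACS2, and the aligner's genome build was not given in the sources used here. Each ChIP library was compared with its own input by the authors in MACS 2.1.2 broad mode with paired-end data, per the file headers, at a q of 0.05, with 1 duplicate kept and the larger library scaled down. The deposited lists give each peak's pileup as coverage signal (not used), −log10 p and −log10 q, fold enrichment as a ratio over input, and length. The mean fold enrichment over a broad peak also depends on its length.

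Peaks were paired from 1 bp of overlap. Genes were the 21883 protein-coding genes of the RefSeq table of GRCm38.p6, and 17491 of them had a start and strand in the promoter table, which does not cover every gene. The build was settled from the data: 11807 annotated starts lay under a wild-type peak, against 708 and 736 after shifts of 20000 bp. Exons and UTRs were not annotated. A gene has a peak when one lies within 2 kb of either end.

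The 61 gene families and lists, the peak lists compared and the alternatives were chosen with earlier results of these data known. Named genes are the 12 strongest unpaired peaks at genes of each list, the 12 longest unpaired Utx-cKO peaks, peaks joining the most wild-type peaks, 12 largest and 8 smallest length ratios at a wild-type fold enrichment of 4 or more, up to 4 members per family, and a fixed list of cartilage and H3K27 genes. Others, among them the examples of coverage and the shorter cartilage genes, were picked after their values were seen. A few genes named by this rule are left out. Nearby genes can share a peak.

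Since each genotype has a single ChIP library, genotypes were not tested against each other; 95% Wilson intervals cover counting error only. Alternatives were equally long lists, q of 0.001 or less, fold enrichment of 4 or more, 50% overlap, merging within 3 kb, autosomes only, windows of 1 and 5 kb, the gene body, and, added after the data were seen, 1 kb around starts. On simulated peaks all 2086 planted peaks with their distances and all 841 joins were recovered (100%). Values were computed in Python 3.11.15 (scipy 1.17.1, pandas 2.3.3, numpy 2.4.6) and drawn with matplotlib 3.10.9.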

Additional observations from a re-analysis of the deposited data

How the results depend on the processing

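No paired analysis was possible because each genotype has 1 ChIP library, so no replicate number is shared. Of 53 values of the main results under alternatives, 36 moved beyond counting error or by over 1.5 times, and 17 did not. The length ratio stayed above 1 and unpaired Utx-cKO peaks stayed below the middle of their list under every alternative run.

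The share of unpaired Utx-cKO peaks was 52.2% and became 27.5% and 26.8% with equally long lists by fold enrichment and by −log10 q, 35.0% at q of 0.001 or less, 21.3% at fold enrichment of 4 or more, 53.4% with 50% overlap and 45.2% after merging within 3 kb. For wild-type peaks, 12.7% became 24.2%, 23.45%, 6.64%, 2.04%, 14.7% and 11.55% in the same order. The cutoff of 4 is set on each list's own input. Of the Utx-cKO peaks that reached it, 222 were unpaired in the full lists and 14233 paired. Most peaks unpaired at this cutoff therefore overlapped a wild-type peak below 4. The rank, distance, gene and family values of unpaired Utx-cKO peaks at this cutoff rest on the same set. The median length ratio of 1.25 became 1.21 at q of 0.001, 1.16 at fold enrichment of 4 and 1.26 after merging. The 871 joining peaks became 345 at q of 0.001 and 109 at fold enrichment of 4, which leave fewer weak peaks to join. The median rank percentile of unpaired peaks, 30.15, became 19.9, 20.45, 20.45, 12.8 and, after merging, 26.8. The median distance of 11361 bp became 11920, 11926, 18347, 37297, 10913 (50% overlap) and 16954 bp (merging). The 3628 genes at unpaired Utx-cKO peaks became 1444 and 1413 with equally long lists, 1776 at q of 0.001, 1741 at fold enrichment of 4, 2404 after merging, 6470 with a 5 kb window, 7762 with the gene body and 829 around starts.

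Of 209 family values, each the share minus that of all genes in percentage points, 12 turned sign. With the gene body Hox turned to -4.70 and lineage bHLH genes to -11.8. At fold enrichment of 4 Pax and Sox genes turned to -7.96 (no member left) and protocadherins to -0.710. With equally long lists by fold enrichment and by −log10 q, Wnt ligands turned to -1.34 and -6.46 and chondrocyte matrix genes to -6.60 and -6.46. Hedgehog genes turned to -1.87 at q of 0.001 and -4.57 with a 5 kb window, and ribosomal protein genes to 3.375 with 5 kb. The cause was not tested.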

Other observations

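Unpaired Utx-cKO peaks sometimes followed one another without a wild-type peak between them. Runs of 8 or more were counted after the data were seen, and 259 were found. The run with the most peaks had 30 over 300.9 kb at Prdm16, a regulator of brown fat and muscle fate, and 10 of its peaks were also unpaired in the equally long lists. Runs of 25 lay over Banp and Zfp469, of 24 around Vegfa, the angiogenic factor gene, and of 24 around Prdm2. Col5a1, a fibrillar collagen gene, Mvb12b and Mn1 each lay in a run of 23, with 7, 7 and 8 such peaks. The fold enrichments of the Prdm16 run were between 2.47 and 3.43, and the median of the whole Utx-cKO list was 3.02.

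Some shared peaks changed place in the ranking of equally long lists. The peak at Ephx2, an epoxide hydrolase gene, stood at percentile 2.78 in wild type and 66.6 in Utx-cKO. Cd14, a receptor of myeloid cells, stood at 11.8 and 69.0, Clec14a, an endothelial gene, at 4.46 and 57.9, and Kdr, an endothelial growth factor receptor gene, at 3.52 and 56.6. In the other direction, Msra stood at 54.75 and 0.242, Pkib at 67.8 and 13.4, and Spp1, the osteopontin gene of bone, at 52.8 and 6.52. The peak was longer in Utx-cKO in both directions of shift, with 432 bp in wild type and 1268 bp in Utx-cKO at Msra, 241 and 2345 bp at Pkib, 304 and 711 bp at Ephx2, 627 and 1255 bp at Clec14a, and 683 and 1126 bp at Kdr. These genes were picked by name from the largest shifts after the values were seen, so the shifts are a description. Others with larger shifts than Clec14a and Kdr, among them Trpv2, Cdh20 and Nlgn1, were passed over, as were Tulp1 and Zbtb38 ahead of Spp1. The named genes therefore do not stand for a cell type.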
